A study of Homo sapiens with 48 samples.

Results

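NANOG and SOX2, a pair of transcription factor genes that human embryonic stem cells use to stay pluripotent, were followed through every culture of a targeted RNA series. Both were taken by symbol from the probe names, which gave 3 probes for each, 2 of the 452 genes and 6 of the 1113 probes on the panel. RNA was measured by RASL-Seq, which joins pairs of DNA probes that sit side by side on polyadenylated RNA and counts the joined pairs by sequencing. All 48 libraries came from the established embryonic stem cell line WA09, also called H9. The 4 hESC libraries came from cells without treatment. The 4 ectoderm libraries came from a neural induction in E6 medium of 6 days, under 2 inhibitors, LDN-193189 at 100 nM against BMP receptors and A83-01 at 2 µM against TGF-beta type receptors. Mesoderm and endoderm had 4 libraries each, made with commercial induction kits over 5 days. Embryoid bodies (EB), floating aggregates of differentiating cells, were seeded at 20000 dissociated cells per well and kept in E6 medium for 7 days. In their first 24 hours they were given CEPT, a cytoprotective mixture of chroman 1, emricasan, polyamines and trans-ISRIB, in the CEPT EB group, or Y-27632, a ROCK inhibitor, in the Y27 EB group, with 16 libraries each. No EB library here lacked both agents, and the labels do not say whether libraries came from separate cultures, so p-values measure the spread between libraries, which may be technical.

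In pluripotent cells, NANOG, SOX2 and OCT4 (the product of POU5F1) bind many of the same regulatory regions, their own genes included, and hold one another's expression up. NANOG is a homeodomain protein whose RNA is lost early when cells commit to a lineage. SOX2 is an HMG-box protein with a further role in neural progenitors, where it stays on after NANOG and POU5F1 are silenced, while mesoderm and endoderm turn it off. Differentiation toward neural tissue is therefore a setting in which the RNAs of these partners are known to part.

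The sequences just before the 2 transcript starts are shown because SOX2 and OCT4 are known to act on paired DNA elements near these genes. They are RefSeq sequences of build GRCh38.p14, plus strand, of the 250 bases before the start. For NANOG this is chr12:7789152-7789401 and for SOX2 chr3:181711675-181711924. Capitals mark a joined SOX and octamer match in NANOG and an octamer match in SOX2.
NANOG: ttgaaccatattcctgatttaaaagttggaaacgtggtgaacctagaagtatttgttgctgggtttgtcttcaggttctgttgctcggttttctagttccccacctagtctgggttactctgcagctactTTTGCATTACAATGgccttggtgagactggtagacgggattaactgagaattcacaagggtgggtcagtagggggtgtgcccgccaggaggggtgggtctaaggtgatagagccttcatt
SOX2: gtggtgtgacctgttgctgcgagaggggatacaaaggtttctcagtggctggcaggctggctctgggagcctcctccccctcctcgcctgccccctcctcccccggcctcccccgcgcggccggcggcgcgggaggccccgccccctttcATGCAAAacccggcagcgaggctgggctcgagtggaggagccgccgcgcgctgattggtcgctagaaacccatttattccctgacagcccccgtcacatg
The octamer core ATGCAAA was searched on both strands of 27305 RefSeq promoter windows of 300 bases, and 1231 of them (4.51%) held it. Among 327 panel genes with a window, 10 held it (3.06%), and both NANOG and SOX2 were among these. The SOX core CATTGT was in 2996 windows (11%), in NANOG but not in the SOX2 window. The joined form CATTGTNATGCAAA, which overlaps both cores, was in 3 of the 27305 windows (0.011%), and of the panel genes only NANOG had it, on the minus strand 120 bases before the start. The SOX2 octamer lay on the plus strand 100 bases before the start. A match describes letters only.

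The probes lie outside the coding part of both transcripts. NANOG probes 488, 489 and 490 are named for positions 1275, 1967 and 1704 of NM_024865. On GRCh38 these fall at bases 7795233, 7795925 and 7795662 of chromosome 12, all in the 3′ UTR in exon 4 of 4. SOX2, a gene of 1 exon, has probe 694 in the 5′ UTR (position 137 of NM_003106, base 181712060 of chromosome 3). Its probes 695 and 696 are in the 3′ UTR (positions 1684 and 2351, bases 181713607 and 181714274). No exon of another gene overlapped these bases, and which base of a probe pair the position marks is not stated. The 101 bases around the NANOG positions resemble NANOGP1, with 94 of 99 aligned bases identical at probe 488, 78 of 97 at probe 489 and 87 of 111 at probe 490. NANOGP11 shared 90 of 101 bases at probe 489, so NANOG reads may include copies of the gene. No other transcript resembled the SOX2 windows at the same search limit. Probe 489 carried most NANOG reads (20747 over all libraries, against 1713 and 1060) and probe 695 most SOX2 reads (93818, against 58974 for probe 696 and 16379 for probe 694).

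Libraries held 379810 to 5577868 reads, with a median of 3583316, and Y27 EB replicate 15 was the shallowest. Levels are panel reads scaled to the usual CPM unit after TMM scaling over all 48 libraries, summed over the 3 probes of a gene unless a probe is named. Each lineage culture had the highest mean of its own marker among the groups. The neural marker PAX6 had 940 ± 86.3 CPM in ectoderm (SD, n = 4), the mesoderm gene T had 2000 ± 126 CPM in mesoderm (SD, n = 4) and the endoderm gene SOX17 had 2730 ± 477 CPM in endoderm (SD, n = 4), against means of at most 1.84 CPM for these genes in hESC. These markers were not exclusive, since endoderm also had PAX6 at 181 ± 16.4 CPM and T at 89.1 ± 9.76 CPM (SD, n = 4). POU5F1, read by 1 probe, had only 9.69 ± 3.02 CPM in hESC (SD, n = 4), so the panel says little about this partner of NANOG and SOX2.

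NANOG was high in hESC and low or lost in every other group. The 4 hESC libraries had 2252, 2392, 2336 and 1950 CPM, a mean of 2233 ± 197 (SD, n = 4). Endoderm libraries had 68, 77.8, 57.9 and 103 CPM, a mean of 76.6 ± 19.2 (SD, n = 4), or 3.43% of hESC. Mesoderm libraries had 6.42, 4.42, 5.7 and 4.2 CPM, a mean of 5.18 ± 1.05 (SD, n = 4), or 0.232% of hESC. The 3 groups did not overlap, with endoderm between the others. In ectoderm a single NANOG read was counted, in replicate 3, in 4 libraries, and replicates 1, 2 and 4 were at 0, which allows up to 1.16, 1.03 and 0.965 CPM there. These limits are 3 reads per library, and like all intervals here they cover counting error only, since PCR reads without molecular identifiers are not separate molecules.

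SOX2 took another course. In hESC it had 1347, 1246, 1250 and 1276 CPM, a mean of 1280 ± 46.9 (SD, n = 4). In ectoderm it stood at 6734, 6564, 6716 and 6549 CPM, a mean of 6641 ± 97.5 (SD, n = 4), 5.19 times the hESC mean. In mesoderm the values were 1.51, 4.08, 3.32 and 2.91 CPM, a mean of 2.96 ± 1.08 (SD, n = 4). Ectoderm was thus the group without NANOG and with the highest SOX2, while mesoderm had little of either RNA. In endoderm SOX2 had 11.1, 8.46, 1.02 and 7.38 CPM, a mean of 7.00 ± 4.29 (SD, n = 4), overlapping mesoderm. In bulk libraries, fewer cells with an RNA and less of it per cell cannot be told apart.

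**Figure D1:**
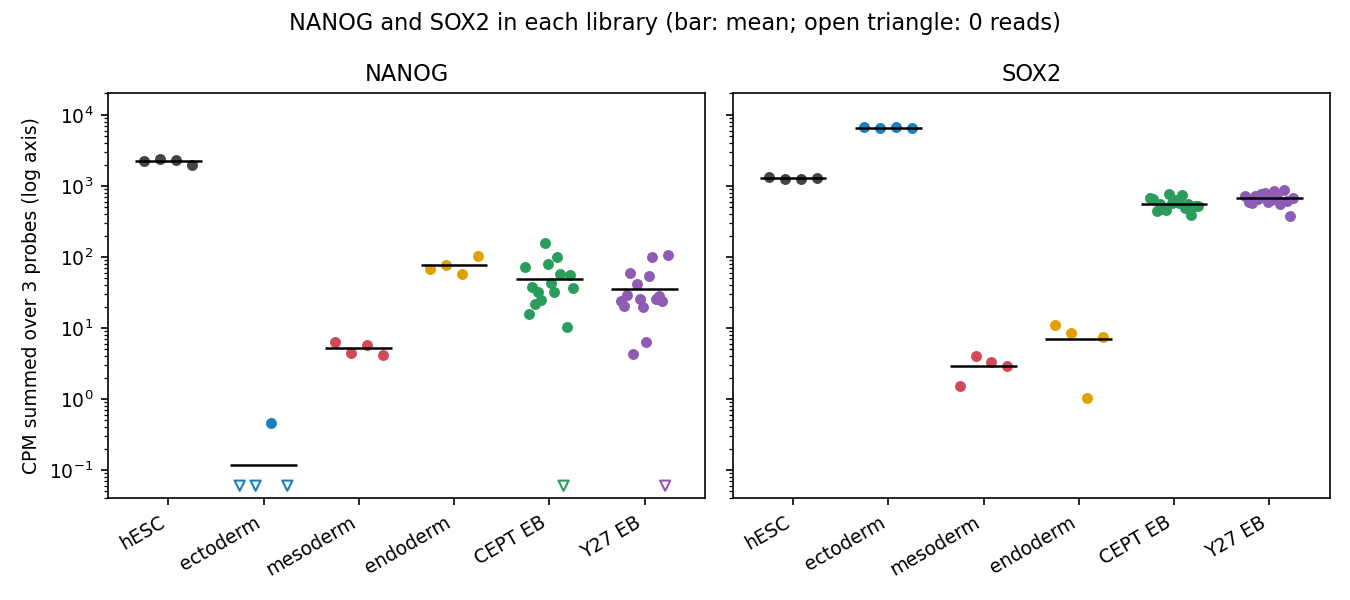
CPM summed over the 3 probes of NANOG (left) and SOX2 (right) in each of the 48 libraries, on a log axis, with a bar at each group mean and open triangles for libraries with 0 reads. NANOG falls from 2233 CPM in hESC to 76.6 or less elsewhere, and SOX2 is highest in ectoderm at 6641 CPM and has a lowest value of 380 CPM in the EB groups.

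The lineage cultures were compared with hESC in a shared fit of the 16 control libraries by edgeR's quasi-likelihood test, and a probe was called at a Benjamini-Hochberg adjusted p under 0.05. Calls were common on this panel: 81.7% of 903 tested probes in ectoderm against hESC, 77.5% in mesoderm and 78.2% in endoderm. All 6 NANOG and SOX2 probes were called in each of these comparisons, which by itself sets them apart little on this panel. In ectoderm, NANOG probe 489 had 15189 reads in hESC against 1, a pooled ratio of 21420 with a 95% exact interval of 3844 to 846099. Probes 488 and 490 were at 0 in every ectoderm library. Against a limit of 3 reads per library, probe 488 was at least 143-fold lower than in hESC and probe 490 at least 77.7-fold. The 3 SOX2 probes rose there, by a log2 fold change of 2.63 ± 0.15 for probe 695 (SE, adjusted p = 3.92e-12), 2.21 for probe 696 and 2.16 for probe 694.

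In mesoderm both genes fell. The log2 fold change was -9.38 ± 0.20 for NANOG probe 489 (SE, adjusted p = 5.25e-18) and -9.03 ± 0.25 for SOX2 probe 695 (SE, adjusted p = 1.34e-16). The other NANOG probes had -7.59 and -7.03 and the other SOX2 probes -8.58 and -9.79, the last from 867 reads in hESC against 1 in mesoderm, with a pooled ratio of 1226 (95% exact interval 219 to 48475). Probes of a gene agreed in direction, although few reads were left to set the size.

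In endoderm NANOG fell less than SOX2. NANOG probe 489 changed by -4.97 ± 0.15 on the log2 scale (SE, adjusted p = 4.10e-16), and probes 488 and 490 by -4.82 and -4.40. SOX2 probe 695 changed by -7.61 ± 0.23 (SE, adjusted p = 3.78e-16), and probes 696 and 694 by -7.31 and -7.66. The 3 NANOG probes and the 3 SOX2 probes thus formed separate ranges.

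**Figure D2:**
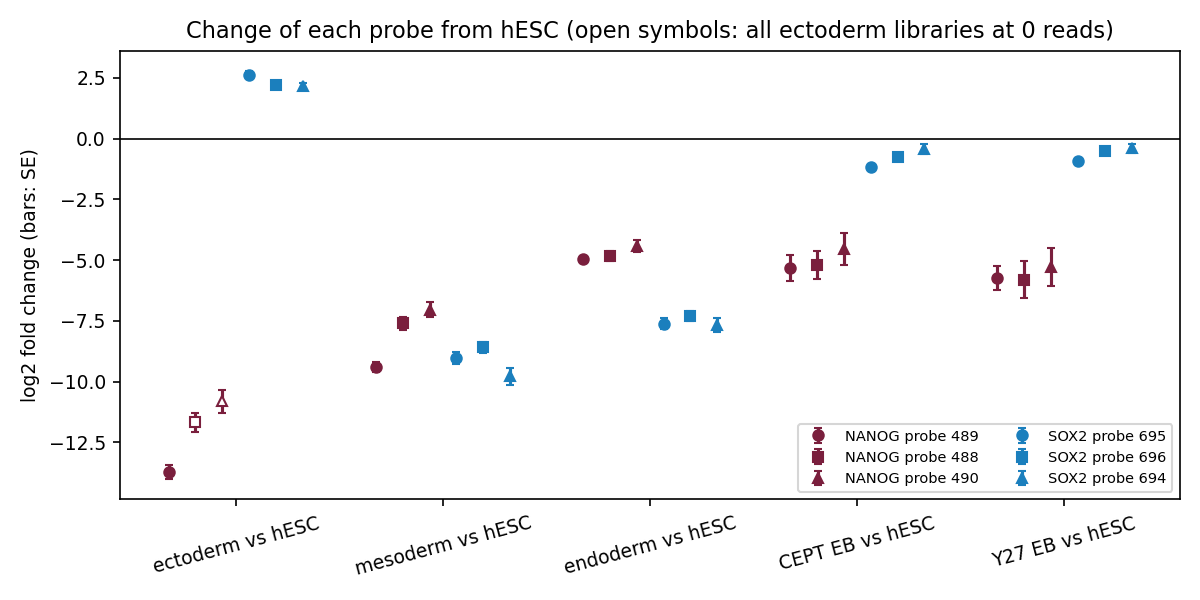
Log2 fold change from hESC with its SE for each probe in the 5 other groups, NANOG in red and SOX2 in blue. Open symbols are fitted values of probes with 0 reads in all ectoderm libraries, for which only the bounds of 143-fold and 77.7-fold hold. With TMM scaling SOX2 is above hESC in ectoderm and below it in the other groups, though in Y27 EB its direction flips with reference genes. NANOG is far below hESC in all 5.

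Set against each other, the lineages fell in the order endoderm, mesoderm, ectoderm for NANOG. Background calls were 80.2% for ectoderm against mesoderm, 79.7% for ectoderm against endoderm and 76.2% for mesoderm against endoderm. NANOG probe 489 was lower in mesoderm than in endoderm by -4.42 ± 0.21 on the log2 scale (SE, adjusted p = 2.65e-13), and probes 488 and 490 were called as well (-2.78 and -2.63), though not in a fit of all 48 libraries (adjusted p = 0.0809 and 0.121). Ectoderm was lower than mesoderm with probe 489, with 1 read against 37, a pooled ratio of 36.9 (95% exact interval 6.22 to 1496, mesoderm over ectoderm). The fit gave -4.33 ± 0.66 on the log2 scale (SE, adjusted p = 7.57e-06), or -5.92 without ectoderm replicate 3, which held the only read. For probes 488 and 490 that difference lies under the 3-read limit. Against endoderm, ectoderm was at least 5.2-fold lower for probe 488 and at least 3.73-fold for probe 490, and probe 489 had 1 read in ectoderm against 633, a pooled ratio of 728 (95% exact interval 130 to 28790).

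SOX2 was far higher in ectoderm than in mesoderm or endoderm, with log2 fold changes of 11.66 and 10.24 for probe 695 (adjusted p = 4.11e-18 and 5.33e-18). Mesoderm and endoderm overlapped for all 3 SOX2 probes. Probe 695 was lower in mesoderm by -1.42 ± 0.44 (SE, adjusted p = 0.00738), probe 696 by -1.28 ± 0.41 (SE, adjusted p = 0.00874), and probe 694, with 1 read against 5, did not pass (adjusted p = 0.0579). With library totals as the only scaling, probes 695 and 696 were not called (-0.81 and -0.67, adjusted p = 0.0969 and 0.158), and without endoderm replicate 1 probe 696 was not called (-0.93, adjusted p = 0.0872). The order of SOX2 in these low groups is therefore not settled by the reads.

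In embryoid bodies at day 7 NANOG was far below hESC while SOX2 was still well above its mesoderm and endoderm levels. NANOG ranged from 0 to 158 CPM over the 16 CEPT EB libraries, with a median of 37.2 and a mean of 48.4 ± 39.3 (SD, n = 16), 2.17% of hESC. Over the 16 Y27 EB libraries it ranged from 0 to 106 CPM, with a median of 25.6 and a mean of 35.7 ± 30.9 (SD, n = 16), 1.6% of hESC. Every EB library was below every hESC library for NANOG. CEPT EB replicate 13 and Y27 EB replicate 15 had no NANOG read, which allows up to 1.43 and 6.44 CPM there. SOX2 in CEPT EB ran from 386 to 762 CPM, with a median of 553 and a mean of 564 ± 107 (SD, n = 16), 44% of hESC. In Y27 EB it ran from 380 to 871 CPM, with a median of 663 and a mean of 668 ± 122 (SD, n = 16), 52.2% of hESC. On the TMM scale used here, no EB library reached the lowest hESC library for SOX2, and none came near the ectoderm level. The first part depends on the scaling. Y27 EB replicate 10 had 6210 SOX2 reads among 4719065, a larger share than the 1920 among 1773969 of hESC replicate 3.

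Each EB group was fitted with hESC alone. In CEPT EB against hESC, 73.4% of 940 probes were called, and of the members the 3 NANOG probes and 2 of 3 SOX2 probes were among them. NANOG probe 489 changed by -5.33 ± 0.54 on the log2 scale (SE, adjusted p = 7.60e-09), and probes 488 and 490 by -5.21 and -4.54. SOX2 probe 695 changed by -1.17 ± 0.13 (SE, adjusted p = 2.09e-08) and probe 696 by -0.75 ± 0.18 (SE, adjusted p = 0.000559). Probe 694 in the 5′ UTR had -0.42 ± 0.20 (SE, adjusted p = 0.0664) and overlapped hESC.

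In Y27 EB against hESC, 74.1% of 963 probes were called, all 6 members included. NANOG probe 489 changed by -5.73 ± 0.49 (SE, adjusted p = 5.88e-10), with -5.80 and -5.29 for probes 488 and 490. SOX2 probes 695, 696 and 694 changed by -0.93 ± 0.14, -0.50 ± 0.14 and -0.40 ± 0.18 (SE), with adjusted p-values of 5.01e-06, 0.00228 and 0.0467. The call of probe 694 was lost when any 1 of the 4 hESC libraries was left out.

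The SOX2 decrease in embryoid bodies was small enough for the scaling of the libraries to matter. In these 2 fits the median of all tested probes was itself above hESC, at 0.47 in CEPT EB and 0.39 in Y27 EB on the log2 scale. Scaling by the reads of ACTB, GAPDH and RPL13A, an alternative chosen after seeing the data, moved those medians up by a further 0.41 and 0.91. SOX2 probe 695 then stood at -0.77 in CEPT EB (adjusted p = 0.00223) and at 0.01 in Y27 EB (adjusted p = 0.989). Probe 696 lost its call in CEPT EB under that scaling (-0.35, adjusted p = 0.205). With library totals alone, probe 696 lost its call in Y27 EB (-0.12, adjusted p = 0.610), and probe 695 there had -0.53 (adjusted p = 0.0318). Scaling by ACTB, GAPDH and RPL13A turned the direction of all 3 SOX2 probes in Y27 EB, to 0.42 for probe 696 and 0.59 for probe 694, none of them called. Other settings made the decrease larger. For probe 695, median-ratio factors, upper-quartile factors, DESeq2 and the fit of all 48 libraries gave -1.48, -1.51, -1.48 and -1.42 in CEPT EB. In Y27 EB they gave -1.19, -1.27, -1.18 and -1.15. Probe 694 in CEPT EB was called under each of these (adjusted p = 0.00266, 0.00304, 0.00189 and 0.00386). Since another scaling shifts all probes nearly alike, the distance of a probe from the panel median is almost fixed by construction and is given only as a description. Over 5 scalings probe 695 was -1.65 to -1.64 from it in CEPT EB and -1.32 to -1.29 in Y27 EB on the log2 scale. NANOG probe 489 was -5.84 to -5.80 from the median in CEPT EB and -6.26 to -6.12 in Y27 EB.

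The embryoid bodies were placed between the lineages in a fit of all 48 libraries. Of 1016 probes, 71.4% were called for CEPT EB against ectoderm and 70.1% for Y27 EB against ectoderm, all 6 members among them in both. SOX2 probe 695 was lower than in ectoderm by -3.96 ± 0.16 in CEPT EB and -3.69 ± 0.16 in Y27 EB on the log2 scale (SE, adjusted p = 1.75e-26 and 3.37e-25). NANOG probe 489 was higher than in ectoderm (adjusted p = 1.11e-06 and 2.99e-06), with 2338 and 2549 reads against 1. Ranges overlapped for NANOG, since each EB group had a library at 0.

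Against mesoderm, 71.7% of probes were called in CEPT EB and 69.3% in Y27 EB, and 4 of 6 members in each. NANOG probe 489 was higher by 3.58 ± 0.86 and 3.20 ± 0.84 on the log2 scale (SE, adjusted p = 0.000261 and 0.000864). Probes 488 and 490 were not called, with values of 1.34 to 2.05 and adjusted p-values of 0.122 to 0.311. SOX2 was higher by 7.39 and 7.67 with probe 695 (adjusted p = 1.10e-24 and 4.28e-25).

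Against endoderm, 77.4% and 73.9% of probes were called, but no NANOG probe in either EB group. Probe 489 had -0.67 ± 0.59 in CEPT EB (SE, adjusted p = 0.293) and -1.06 ± 0.58 in Y27 EB (SE, adjusted p = 0.0916), so that no NANOG difference was called and the libraries overlapped. SOX2 told them apart, with probe 695 higher by 6.15 in CEPT EB and 6.42 in Y27 EB (adjusted p = 2.08e-23 and 6.22e-24).

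Between the 2 EB groups, differences in these genes were small or not called. In CEPT EB against Y27 EB 23.6% of 867 probes were called, and 1 of the 5 members tested. NANOG probe 489 differed by 0.37 ± 0.46 on the log2 scale (SE, adjusted p = 0.625) and probe 488 by 0.53 ± 0.68 (SE, adjusted p = 0.646), while probe 490 had too few reads to be tested. SOX2 probe 695 was lower in CEPT EB by -0.29 ± 0.10 (SE, adjusted p = 0.0378), and the groups overlapped. Probe 696 had -0.29 ± 0.12 (SE, adjusted p = 0.0624) and probe 694 had -0.07 ± 0.14 (SE, adjusted p = 0.773). The call of probe 695 was lost with DESeq2 (-0.20, adjusted p = 0.174), with median-ratio factors (-0.20, adjusted p = 0.186), with upper-quartile factors (-0.24, adjusted p = 0.123), with only probes of at least 10 reads in every library (-0.21, adjusted p = 0.129) and in the fit of all 48 libraries (-0.27, adjusted p = 0.0825). It was also lost on leaving out any of 18 of the 32 libraries in turn, with adjusted p-values of up to 0.101. Library totals alone and reference genes gave larger differences of -0.61 and -0.78, with the panel median moving by -0.31 and -0.47 in the same direction. Without Y27 EB replicate 15, the shallowest library, probe 695 had -0.33 (adjusted p = 0.00817) and probe 696 was called (-0.34, adjusted p = 0.0161).

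The ratio of NANOG to SOX2 reads within a library needs no scaling between libraries. Its size depends on the probes, so only its differences between groups are read. The log2 ratio, with 0.5 reads added to each gene, was between 0.61 and 0.94 over the 4 hESC libraries, a mean of 0.80 ± 0.15 (SD, n = 4). It was -14.71 ± 0.99 in ectoderm (SD, n = 4), 3.76 ± 1.27 in endoderm (SD, n = 4), -4.22 ± 2.04 in the CEPT group (SD, n = 16) and -4.84 ± 1.52 in the Y27 group (SD, n = 16). The balance thus leaned to SOX2 in ectoderm and embryoid bodies and to NANOG in endoderm, and none of these groups overlapped hESC. In mesoderm, at 0.83 ± 0.80 (SD, n = 4), it overlapped hESC although both RNAs were down to a few CPM.

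By exact two-sided permutation tests the ratio was lower than in hESC in ectoderm and higher by 2.96 in endoderm, with p = 0.0286 in each, the smallest that 4 against 4 libraries can give, and 0.0429 after adjustment over 6 comparisons. In ectoderm 3 of 4 libraries had no NANOG read, so the size of the difference is set by the reads added: it was -15.51 with 0.5 reads, -14.66 with 1 and -13.22 with 3, and only its direction is read. The mesoderm difference of 0.03 had an exact permutation p of 1. CEPT EB differed by -5.02 and Y27 EB by -5.64 (permutation p = 0.00025, adjusted 0.00075 for each). The 2 EB groups differed by 0.62 (permutation p = 0.359, adjusted 0.431).

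**Figure D3:**
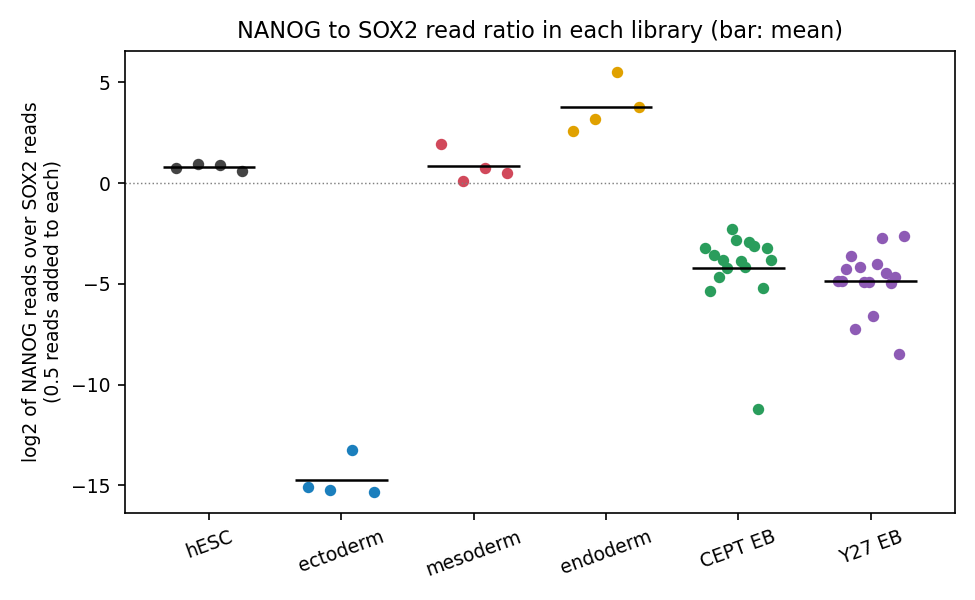
Log2 of NANOG reads over SOX2 reads, with 0.5 reads added to each, in every library, with a bar at the group mean. The hESC libraries lie at 0.61 to 0.94, ectoderm at -15.31 to -13.23, endoderm at 2.59 to 5.52 the Y27 EB libraries at -8.47 to -2.65 and the CEPT EB libraries at -11.19 to -2.27.

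EB libraries of the same group differed more in NANOG than in SOX2. The SD of NANOG was 81.1% of its mean in CEPT EB and 86.6% in Y27 EB, which ranked NANOG 9 of 296 and 12 of 292 genes with a mean of at least 30 CPM. Counting noise would give 7.8% and 7.58% if each read were a separate molecule, which PCR reads are not. NANOG means of 48.4 and 35.7 CPM lay near that minimum, against 564 and 668 CPM for SOX2. Whether level has a part in the difference in spread was not tested. The same measure for SOX2 was 19.1% and 18.3%, against a median over these genes of 25.3% and 22.9%. The highest NANOG library stood 4.26 times above the median in CEPT EB and 4.16 times in Y27 EB, against 1.38 and 1.32 times for SOX2. Without the library at 0 reads in each group, the NANOG values were 74.3% and 80%.

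The libraries with more NANOG also had more GDF3, a TGF-beta family ligand of pluripotent cells whose gene lies 93.6 kb before NANOG on chromosome 12, and more DNMT3B, a de novo DNA methyltransferase of early embryonic cells. Over 16 relations computed on log2 CPM within the 2 EB groups, NANOG with GDF3 had a Pearson r of 0.60 and a Spearman rho of 0.72 in CEPT EB (permutation p = 0.00541 and 0.00226, adjusted 0.0254 and 0.00904, n = 16). In Y27 EB they were 0.56 and 0.73 (permutation p = 0.0265 and 0.00176, adjusted 0.0529 and 0.00904, n = 16). Without the 2 libraries farthest from the NANOG median, r was 0.74 and 0.87. GDF3 was low, at 20.9 ± 18.2 CPM in CEPT EB and 20 ± 35.4 CPM in Y27 EB (SD, n = 16). Its medians were 14.8 and 7.44 CPM, so its values rest on few reads. NANOG with DNMT3B had an r of 0.62 and a rho of 0.78 in CEPT EB (permutation p = 0.00291 and 0.00053, adjusted 0.0233 and 0.00424, n = 16) and 0.65 and 0.67 in Y27 EB (permutation p = 0.00636 and 0.00601, adjusted 0.0254 and 0.0178, n = 16), and 0.74 and 0.61 for r without the farthest 2. With library totals as the only scaling, r of NANOG with DNMT3B was 0.45 and 0.44 and was not called. These genes share library, depth and scaling with NANOG, and whether depth has a part was not tested beyond those values.

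**Figure D4:**
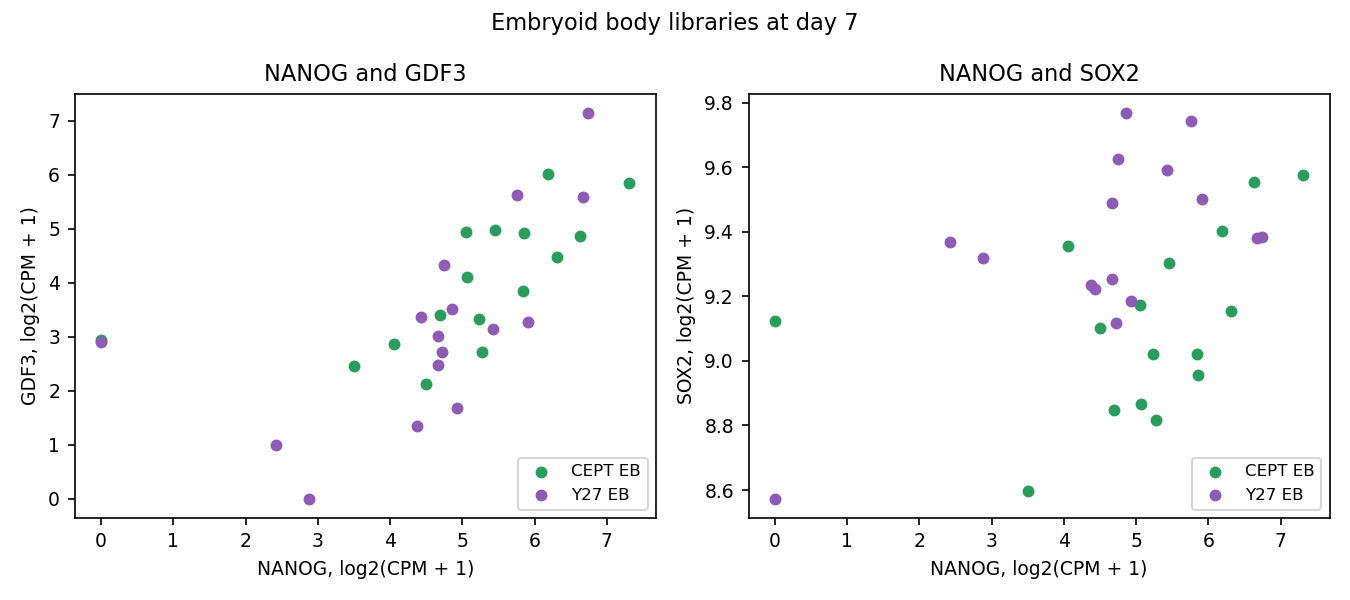
NANOG against GDF3 (left) and against SOX2 (right) in the 32 EB libraries, both axes as log2(CPM + 1), CEPT EB in green and Y27 EB in purple. GDF3 rises with NANOG in both groups, with rho of 0.72 and 0.73, while the low SOX2 point at no NANOG reads is Y27 EB replicate 15, the shallowest library.

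NANOG and SOX2 themselves were not firmly related across EB libraries. In CEPT EB r was 0.34 and rho 0.46 (permutation p = 0.208 and 0.0724, adjusted 0.277 and 0.129, n = 16), and 0.54 for r without the farthest 2. In Y27 EB r was 0.68 and rho 0.54 (permutation p = 0.0121 and 0.0334, adjusted 0.0323 and 0.0669, n = 16), but r fell to 0.27 without replicates 5 and 15, so the relation rests on those libraries. NANOG with the library total behaved alike in Y27 EB, with r of 0.77 and rho of 0.30 (permutation p = 0.0208 and 0.257, adjusted 0.0476 and 0.411, n = 16) and an r of 0.03 without the same 2. NANOG with DPPA4, a chromatin protein of pluripotent cells, had r of -0.04 and 0.19 (permutation p = 0.888 and 0.439, adjusted 0.97 and 0.54, n = 16).

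SOX2 was set against DPPA4, called in CEPT EB only, and PAX6, called in Y27 EB only. It was not set against GDF3 or DNMT3B. With DPPA4 its r was 0.63 and its rho 0.66 in CEPT EB (permutation p = 0.0096 and 0.00666, adjusted 0.0307 and 0.0178, n = 16), and 0.58 for r without the farthest 2. In Y27 EB they were 0.53 and 0.57 (permutation p = 0.0458 and 0.0221, adjusted 0.0732 and 0.0505, n = 16), and 0.51 without them. With PAX6, a neural progenitor factor, r was 0.74 and rho 0.81 in Y27 EB (permutation p = 0.00036 and 0.00025, adjusted 0.00576 and 0.004, n = 16), and r was 0.58 without the farthest 2. In CEPT EB the same pair had r of -0.02 and rho of -0.07 (permutation p = 0.928 and 0.804, adjusted 0.97 and 0.804, n = 16), and the difference between the groups was not tested. PAX6 itself was low in embryoid bodies, with 19 ± 10.2 CPM after CEPT and 10.3 ± 9.58 CPM after Y-27632 (SD, n = 16), so its values rest on few reads. SOX2 with the library total had r of 0.01 in CEPT EB and 0.69 in Y27 EB (permutation p = 0.97 and 0.0436, adjusted 0.97 and 0.0732, n = 16), the latter 0.08 without the farthest 2.

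The reads of SOX2 also moved between its probes. Probe 695 held 54.8% to 60.4% of SOX2 reads in the hESC libraries, 62.8% to 65.1% in ectoderm, 36.9% to 54.2% in CEPT EB and 40.8% to 52.3% in Y27 EB, so neither ectoderm nor the EB groups overlapped hESC. Probe 694 in the 5′ UTR held 8.02% to 9.32% in hESC and 5.39% to 8.49% in ectoderm. It held 8.89% to 19.1% in CEPT EB and 8.2% to 15.2% in Y27 EB. For this probe, ectoderm and both EB groups overlapped hESC. NANOG reads shifted as well: probe 489 held 88.4% to 89.3% in hESC and 83% to 89.8% in endoderm, but 58.8% to 76.9% in mesoderm, from 55 reads, which did not overlap hESC. In the EB libraries with NANOG reads its share was 53.6% to 95.9% after CEPT and 72.7% to 100% after Y-27632. These shares are given without a test, and the SOX2 fold changes therefore depend on the probe read.

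Across the 6 group means the r between the mean log2 CPM of the 2 genes was -0.05. Over so few points this does not show that they are unrelated, and both fell in mesoderm and endoderm. Among 351 panel genes with at least 50 CPM in their highest group, the patterns most like NANOG were those of GDF3 (r = 0.981), IDO1 (0.937), SEPHS1 (0.927) and CD24 (0.866), described over 6 points. GDF3 had 332 ± 24.5 CPM in hESC, 57.9 ± 2.69 in endoderm and 1.44 ± 0.552 in mesoderm (SD, n = 4), and it had no read in ectoderm. SEPHS1 and CD24 share the shape of the pattern but spanned a much smaller range, with mean log2 CPM of SEPHS1 going from 11.90 in hESC to 8.29 in ectoderm where NANOG went from 11.12 to -0.65.

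For SOX2 the most alike were FGFBP3 (r = 0.967), SULF1 (0.961), PTGIS (0.959) and MAP2 (0.951). FGFBP3, a binding protein of fibroblast growth factors, had 1755 ± 51.8 CPM in hESC and 3248 ± 425 in ectoderm (SD, n = 4), 90.5 ± 4.55 in mesoderm and 66 ± 11.2 in endoderm (SD, n = 4), and 504 ± 143 after CEPT against 608 ± 243 after Y-27632 (SD, n = 16). MAP2, a microtubule protein of neurons, shared the high ectoderm and low mesoderm and endoderm. Unlike SOX2, it was above hESC in the embryoid bodies, with 213 ± 41.3 and 228 ± 45.5 CPM (SD, n = 16) against 48.6 ± 5.35 CPM (SD, n = 4).

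**Figure D5:**
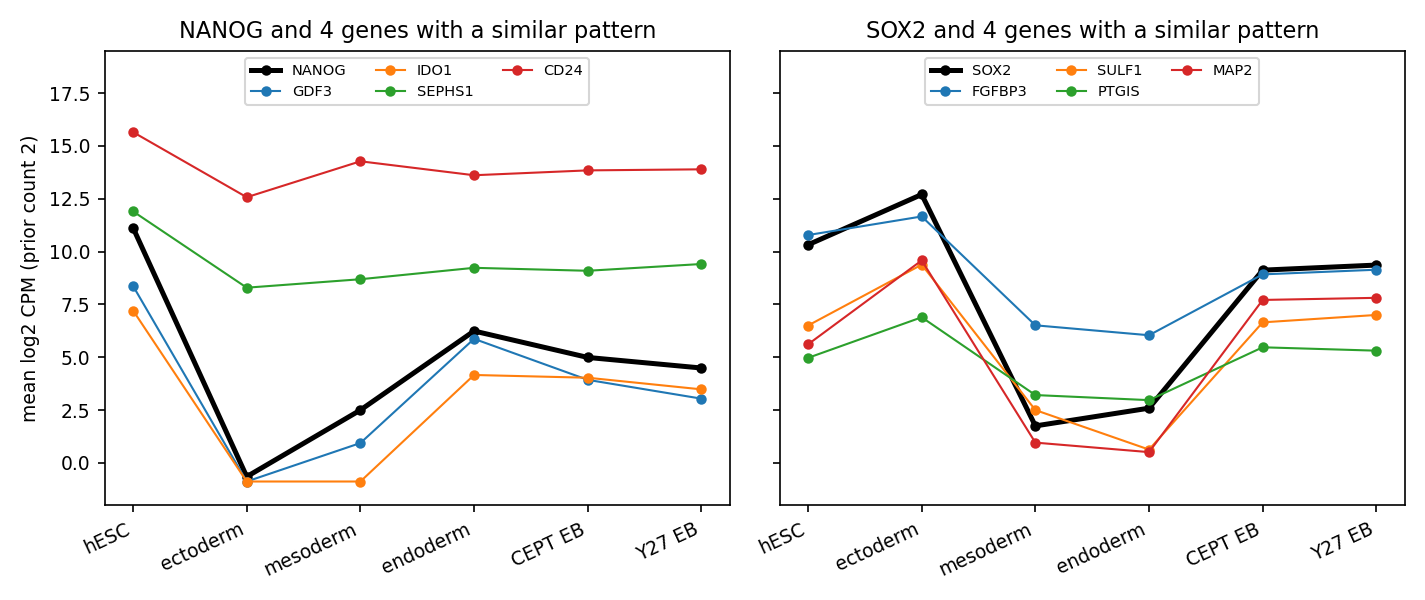
Mean log2 CPM of NANOG (left) and SOX2 (right), in black, and of 4 genes with a similar pattern each over the 6 groups. GDF3 tracks NANOG closely, and FGFBP3, SULF1 and MAP2 share with SOX2 the peak in ectoderm and the low levels in mesoderm and endoderm.

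Other pluripotency genes mostly fell with NANOG. Of 25 such genes on the panel, with NANOG and SOX2 left aside, 24 were tested by their most read probe. In ectoderm 20 fell and 1 rose, with a median log2 fold change of -3.51 against 0.14 over all probes (-3.38 with genes at 0 set to their bound). GDF3 was at least 224-fold lower there, and TDGF1, a Nodal co-receptor, changed by -9.23. In mesoderm 22 fell and 2 rose, with a median of -3.24 against -0.18. NANOG probe 489 lay below both medians, at -9.38 in mesoderm and, from a single read, at a fitted -13.71 in ectoderm (-15.32 without replicate 3). SOX2 lay above the ectoderm median. Over all probes 38.5% were called lower in ectoderm and 43.5% in mesoderm.

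In endoderm 14 of the 24 genes fell and 10 rose (median -1.16 against 0), where 39.8% of all probes were called lower and 38.4% higher. The highest were LEFTY2 and LEFTY1, inhibitors of Nodal signalling, at 12.79 and 8.48, and Nodal pathway genes are known to be active in definitive endoderm. In CEPT EB 20 fell and 2 rose (median -2.49 against 0.47) and in Y27 EB again 20 fell and 2 rose (median -2.51 against 0.39), with TDGF1 at -4.09 and -4.67 and GDF3 at -3.79 and -3.95. SOX2 probe 695, at -1.17 and -0.93, lay above these medians and NANOG probe 489, at -5.33 and -5.73, below them. Over all probes 31.2% and 32.6% were called lower in these comparisons. Between the EB groups 2 of 21 were higher in CEPT EB and 1 lower, a count not above the 23.6% called over all probes. These were EPCAM, an adhesion molecule of epithelia and stem cells (1.51 ± 0.36, SE, adjusted p = 0.00250), LIN28B (0.17) and FOXD3 (-0.39).

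Genes of the SOX family and of neural progenitors mostly went with SOX2 in ectoderm and mostly against it in embryoid bodies. Of 21 tested, 17 rose and 1 fell in ectoderm against hESC, with a median log2 fold change of 3.53 against 0.14 over all probes (2.94 with genes at 0 set to their bound). PAX6 had 11.60. Over all probes 43.2% were called higher there. In mesoderm 6 rose and 8 fell, where 34.0% of all probes were called higher and 43.5% lower. In endoderm 10 rose and 6 fell, where 38.4% of all probes were called higher and 39.8% lower, SOX17 being at least 1320-fold higher there. In CEPT EB 16 of 21 rose and 3 fell (median 3.55, or 1.98 with bounds), and in Y27 EB 13 of 20 rose and 3 fell (3.21, or 1.93), where 42.2% and 41.5% of all probes were called higher. SOX10, a neural crest and glial factor, had 8.25 and 8.59, and PAX3, a dorsal neural and neural crest factor, was higher at least 372-fold in the CEPT group and at least 467-fold in the Y27 group. The genes that fell, in CEPT EB and Y27 EB, were ZIC1 (-3.12 and -3.47), ZIC2 (-3.22 and -3.43) and SIX3 (-2.09 and -3.18). SOX1 was called in neither, at 1.81 and 1.59 (adjusted p = 0.0903 and 0.133). ZIC1, ZIC2, SIX3 and SOX1 were named after their values were seen. Between the EB groups 2 of 20 were higher in CEPT EB (OTX2 at 0.92 and SOX11 at 0.78) and 4 lower, among them OLIG2 at -0.83, near the share of 23.6% called over all probes.

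Markers of other cell types were counted beside the low NANOG and retained SOX2 of the embryoid bodies. Over all probes 42.2% were called higher and 31.2% lower in CEPT EB against hESC, and 41.5% and 32.6% in Y27 EB, beside which the counts of these short lists stand. All 9 neuron genes tested rose in both EB groups against hESC (median 6.20 and 5.94), TUBB3, a neuronal tubulin, by 2.82 and 2.93 and DCX, a microtubule protein of young neurons, by 6.20 and 5.94. All 5 neural crest genes rose (median 8.25 and 8.59): PAX3, SNAI2, SOX10, NGFR and FOXD3, of which PAX3 and SOX10 also stand in the SOX and neural progenitor list and FOXD3 in the pluripotency list. The trophoblast or amnion list had 1 gene on the panel, ISL1, which rose in both but is also in the neuron list. Of 6 mesoderm genes tested, HAND1, PDGFRA and MSX1 rose and KDR fell in each EB group. Of 5 endoderm genes, SOX17 and GATA6 rose and FOXA1 and HHEX fell in each. Of 4 stress response genes, DDIT3 rose in both (4.39 and 3.45) and ATF4 fell in both (-0.93 and -0.86), while GDF15 (-2.38) and HSPA5 (-0.33) fell in Y27 EB. In CEPT EB against Y27 EB, where 92 of all 867 probes were called higher and 113 lower, SST was higher and NEUROD1 and ISL1 lower among the 9 neuron genes, FOXD3, SOX10, PAX3 and SNAI2 were lower among the 5 neural crest genes, and GDF15 (3.26) and DDIT3 (0.91) were higher among the 4 stress response genes. Several of these genes fall outside the rule for named genes and were named after their values were seen. The part of these markers in the NANOG and SOX2 levels was not tested.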

How the data were processed

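RNA of 48 libraries was measured by RASL-Seq on a NextSeq 550. The authors deposited unnormalized counts of reads for each probe pair, from a custom aligner per the labels' design text, and the submitters' processing notes name hg38 and DESeq2. The aligner's settings and the probe sequences are not given in the sources used here. The 48 columns of the merged table equalled the sample files, and 16 further columns matched no sample and were not used. Members and gene lists were chosen with earlier results of these data known.

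Counts were filtered by filterByExpr, scaled by TMM and tested two-sided in edgeR 4.0.16 (R 4.3.3) with the robust quasi-likelihood test and Benjamini-Hochberg adjustment over all tested probes, with a threshold of 0.05. Standard errors came from the fold change and F. Controls shared a fit, each EB group was fitted with hESC, EB groups with each other, and EB groups against lineages in a fit of all 48. CPM used TMM factors over 48 libraries, so CPM ratios and fitted fold changes differ. For SOX2 in the EB groups against hESC the gap is not slight beside the change. Probe 695 in CEPT EB had -1.17 when fitted with hESC alone and -1.42 in the fit of all 48 libraries. Log2 CPM had a prior count of 2. Pooled ratios have exact conditional intervals, and sample permutation tests drew 100000 resamples unless exact. The 30 CPM minimum for spread was chosen after values were seen. Beyond the members, genes were named by likeness (the first 4 of 5 per member are printed) and by the largest called change in 2 lists (up to 4 per comparison). Per GENCODE 29 and RefSeq tables, probes and promoters were located. Alternatives covered scaling, filters, DESeq2 1.42.0, gene sums, samples fitted, a replicate block and libraries left out. The fits were tested on simulated counts. Library totals are in the report, and a few results are not reported here.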

Additional observations from a re-analysis of the deposited data

Results flagged for a closer look

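In groups of 4 libraries, 38 sets of values were checked for a library far from the others. They covered NANOG, SOX2, their ratio and the library total. Such a library was found in 4 sets (10.5%), where chance gives about 1 in 20 groups. Of these, 3 are the same single read: ectoderm replicate 3 had 0.465 CPM for NANOG probe 489 and for NANOG summed, where the other ectoderm libraries had 0, and its log2 NANOG to SOX2 ratio was -13.23, where the others lay at -15.3 to -15.1. The remaining one is SOX2 probe 694 in mesoderm replicate 2, at 0.34 CPM from 1 read, where the other mesoderm libraries had 0. Sets with 1 read and 0 elsewhere are flagged by construction, so the chance rate does not apply to them.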

How the results depend on the processing

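For probes 489 and 695, 500 of 525 alternative fits kept direction and side of the threshold, 24 lost the call and 1 reversed. For the other 4 probes this was 905 of 946, with 15 lost, 18 gained and 8 reversed. The cause of the changes was not tested. SOX2 in mesoderm against endoderm lost its call with library totals (-0.81 for probe 695). CEPT EB against Y27 EB for probe 695 (-0.29) lost it with median-ratio factors (-0.20), upper-quartile factors (-0.24), the 10-read filter (-0.21), DESeq2 (-0.20) and all 48 libraries in a fit (-0.27), and ranged from -0.33 to -0.23 with each library left out. Reference genes reversed Y27 EB against hESC for probes 695, 696 and 694 (0.01, 0.42 and 0.59) and CEPT EB against hESC for probe 694 (0.04). Library totals reversed Y27 EB against hESC for probe 694 (0.03) and CEPT EB against endoderm for NANOG probe 490 (0.15). In CEPT EB against Y27 EB probe 694 reversed with median-ratio factors (0.02), DESeq2 (0.02) and the 10-read filter (0.01). The mesoderm to hESC difference of the log2 ratio, 0.03, reversed with 1 read (-0.01) or 3 reads (-0.15) added and with the most read probes alone (-0.22), and ranged from -0.35 to 0.27 with each library left out.

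Among relations, library totals alone ended the call of NANOG with DNMT3B (r = 0.45 in CEPT EB, 0.44 in Y27 EB), of NANOG with SOX2 (0.38) in Y27 EB and, with a higher r, of NANOG with library total there (0.80, adjusted p = 0.0938). They gave a call to SOX2 with DPPA4 in Y27 EB (0.81), and turned NANOG with DPPA4 in Y27 EB (-0.03) and, in CEPT EB, SOX2 with PAX6 (0.36) and with library total (-0.36). Without Y27 EB replicate 15, NANOG with SOX2 (0.26) and with library total (0.12) lost their calls, NANOG with GDF3 gained one (0.85), and NANOG with DPPA4 (-0.01) and SOX2 with library total (-0.14) turned.

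Counts of called probes moved by over 1.5 times with the 10-read filter (332 to 435 called in 14 comparisons, against 688 to 786) and with reads summed per gene (112 to 351), which test fewer features, and in CEPT EB against Y27 EB with library totals (339) and reference genes (439), against 205. Replicate numbers were not taken as pairs, since in no pair of groups did every number have a correlation of deviations over 0.1: it was -0.27 to 0.17 over 16 EB numbers and -0.14 to 0.04 for hESC with the lineages. Between lineages it was higher, at 0.05 to 0.58 for ectoderm with mesoderm, 0.04 to 0.46 for mesoderm with endoderm and 0.07 to 0.45 for ectoderm with endoderm, where all 4 numbers correlated best with their own, a hint from the data and not from the design. With a replicate block, probe 695 in CEPT EB against Y27 EB was -0.27 (adjusted p = 0.0458), probe 696 was called (-0.30, adjusted p = 0.0444), NANOG probe 490 in Y27 EB against ectoderm was not (adjusted p = 0.0604), and 167 probes were called between the EB groups, against 205. Depth limits NANOG in ectoderm and SOX2 in mesoderm and endoderm, which rest on 1, 32 and 68 reads.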
